A study of Mus musculus with 12 samples.

Results

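The genes described here are 10 transcription factor genes of the Krüppel-like factor (KLF) and early growth response (EGR) families, chosen by name from the 43626 genes counted in RNA-Seq libraries of murine bone marrow–derived macrophages (BMDMs). They are Klf2, Klf3, Klf4, Klf6, Klf7, Klf10, Klf13, Egr1, Egr2, and Egr3. A filter on low counts kept 14308 genes for testing, among them 9 of the 10. Egr3, with 1 to 10 reads per library, was removed by it.

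The 12 libraries form 4 groups of 3. Quiescent BMDMs received PBS, and the other groups received 3′-sialyllactose (3′SL, an acidic human milk oligosaccharide; the labels call this group HMO), LPS (bacterial lipopolysaccharide, a ligand of the receptor TLR4), or both, LPS+HMO, written LPS + 3′SL below. In the study's text LPS was given at 10 ng/mL and 3′SL at 100 μg/mL, for 6 hours. The labels name the cells only as macrophages, and the animals' strain, genotype, sex, and age for these cultures are not given in the sources used here. BMDMs are cells grown from marrow in culture, so they stand for no single tissue macrophage. Nothing in the labels says which libraries come from 1 animal or 1 culture, so the p-values measure the spread between these libraries. Library numbers in the titles run in 3 consecutive sets of 4, each with 1 library per group. The labels do not describe these sets, but libraries of 1 set deviated together, so ratios within each set are given beside the pooled values.

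From 20411741 to 26851890 reads were counted on genes per library. All 8 macrophage markers were detected in every library, with a summed level of 17634 to 28335 CPM (read counts scaled to a common library size, with TMM factors). Markers of other cells differed between the sets. The summed level of 7 stromal markers was 638 to 745 CPM in set 1, 27.8 to 48.3 CPM in set 2, and 69.8 to 117 CPM in set 3. For 7 neutrophil markers it was 96.3 to 161 CPM in set 1, 191 to 319 CPM in set 2, and 196 to 729 CPM in set 3. Both sums overlapped between all treatments when the sets were pooled. Within each set both were higher with LPS than with PBS, and with LPS + 3′SL than with 3′SL. Neutrophil sums, PBS to LPS, went from 96.3 to 161, 191 to 319, and 367 to 729 CPM in sets 1 to 3. They were mostly S100a8, S100a9, and Ltf. With LPS, 5 of the 7 neutrophil markers had log2 fold changes above 0 and 2 below, Elane (-0.51) and Mpo (-0.11). None of the 7 passed the test described below. Stromal sums went from 638 to 729, 27.8 to 48.3, and 87 to 117 CPM. The 5 dendritic cell markers summed to 0.912 to 2.23 CPM without LPS and 5.62 to 15.8 CPM with it. With LPS this sum was mostly Xcr1 (mean 0.539 CPM in PBS and 7.51 CPM in LPS). Xcr1 and Clec9a passed the test with LPS, Zbtb46 did not, and Flt3 and Cd209a had too few reads to test. The 7 lymphocyte markers summed to 8.67 to 16.5 CPM, with Cd3e at 0 in all libraries. Macrophage markers moved with LPS as well: their sum was 17634 to 20667 CPM in PBS and 25142 to 28022 CPM in LPS. By the test described below 5 of 8 rose, against 18.3% of all genes tested. When libraries were scaled by total counts 3 of 8 rose, against 1535 of 14308 genes. The part of these other cells in the results was not tested. In bulk RNA, fewer cells of a type and less RNA per cell cannot be told apart.

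KLF proteins carry zinc fingers that bind GC-rich and CACCC sequences, and their other domains recruit coactivators or corepressors. EGR proteins bind a related GC-rich site, are made within minutes of growth factor or TLR signals through ERK and serum response factor, and are held in check by the NAB corepressors. In macrophages, KLF2 and KLF4 are known to restrain or shape inflammatory transcription, KLF6 to favor NF-κB–driven genes, and EGR2 to mark resting and alternatively activated cells.

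RefSeq promoter sequences (GRCm38.p6) were given for 7 of the 10 genes: Klf2, Klf3, Klf4, Klf6, Klf7, Klf13, and Egr2. Of these, 3 are shown because their genes behaved differently, as described below. Klf6 rose with LPS. Klf2 with 3′SL alone and Egr2 with LPS + 3′SL had lower values that the reported test did not call against PBS and LPS. Whether the marked elements have a part in this was not tested. Each run is the 250 bases before a transcription start, on the forward strand. In Klf2 (chr8:72318812-72319061) the capitals mark a match to the MEF2 site. In Klf6 (chr13:5861239-5861488) they mark a GC box, and in Egr2 (chr10:67537619-67537868) a CArG box, the sequence that serum response factor binds. The Klf2 run also holds 2 GC boxes, which are not marked.
Klf2: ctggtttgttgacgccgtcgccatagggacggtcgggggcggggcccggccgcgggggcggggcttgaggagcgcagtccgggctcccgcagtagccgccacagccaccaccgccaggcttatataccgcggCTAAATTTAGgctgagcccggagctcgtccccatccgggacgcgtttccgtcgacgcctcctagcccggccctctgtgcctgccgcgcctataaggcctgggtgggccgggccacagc
Klf6: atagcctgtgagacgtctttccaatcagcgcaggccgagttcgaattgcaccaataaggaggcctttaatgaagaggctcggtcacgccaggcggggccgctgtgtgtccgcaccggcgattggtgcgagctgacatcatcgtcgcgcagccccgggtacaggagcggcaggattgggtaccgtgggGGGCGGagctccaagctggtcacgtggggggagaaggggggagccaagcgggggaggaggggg
Egr2: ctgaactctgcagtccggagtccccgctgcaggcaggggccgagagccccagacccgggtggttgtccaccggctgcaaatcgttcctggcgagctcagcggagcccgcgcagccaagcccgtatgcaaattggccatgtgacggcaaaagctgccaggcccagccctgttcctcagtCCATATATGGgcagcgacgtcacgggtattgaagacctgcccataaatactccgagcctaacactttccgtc

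Each motif was searched on both strands in the 250 bases before every start in the same collection, 32817 windows in all. The MEF2 site lay 118 to 109 bases before the Klf2 start and was found in 2.92% of all windows. Among the 7 genes, Klf2 alone held it. The CArG box lay 72 to 63 bases before the Egr2 start shown. It was found in 1.47% of windows, and among the 7 genes only Egr2 held it, in 4 of its 5 windows, 3 of which overlap. The GC box (GGGCGG) was present in all 6 KLF windows, in some Egr2 windows but not the one shown, and in 32.7% of all windows. The CACCC motif was present in Klf2, Klf3, Klf7, Klf13, and Egr2, in the last in 2 overlapping windows, the one shown among them, against 52% of windows. TGACG, the core of the CRE, was found in Klf2, Klf4, Klf13, and Egr2 and in 17.7% of windows. An NF-κB site, present in 7.25% of windows, was found in 1 window of Egr2 only. The EGR site (GCGTGGGCG, which can overlap a GC box) and the AP-1 site (TGANTCA) were not found in these windows and occur in 0.536% and 6.75% of all. The marked matches in Klf2 and Egr2 overlapped no other motif searched. A match in letters is a description of the sequence only.

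Levels between genes were compared per exon length, as RPKM (the same scaled counts per kilobase of exon). Klf6 had the highest level of the 10, with 61.1 ± 2.37 RPKM in PBS and 272 ± 64.9 RPKM in LPS (SD, n = 3, as below). In PBS, Klf10 (14.5 ± 3.67 RPKM), Klf13 (9.41 ± 0.0501 RPKM), and Egr2 (6.26 ± 1.44 RPKM) came next, with no overlap between neighbors. Klf3 (3.69 ± 0.742 RPKM), Klf2 (2.53 ± 0.574 RPKM), Klf4 (2.45 ± 0.194 RPKM), and Klf7 (2.02 ± 0.503 RPKM) formed a group in which each overlapped its neighbor except Klf3, whose lowest library (3.21 RPKM) lay just above the highest of Klf2 (3.17 RPKM). Egr1, at 0.503 ± 0.0681 RPKM, and Egr3, at 0.0309 ± 0.0152 RPKM, were lowest. In LPS the order changed: Klf3 (9.69 ± 1.42 RPKM) and Klf7 (9.31 ± 1.14 RPKM) overlapped Klf10 (11.2 ± 3.23 RPKM) and Klf13 (12.0 ± 3.1 RPKM), and Egr1 (4.35 ± 0.131 RPKM) overlapped Egr2 (4.57 ± 0.897 RPKM).

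**Figure D1:**
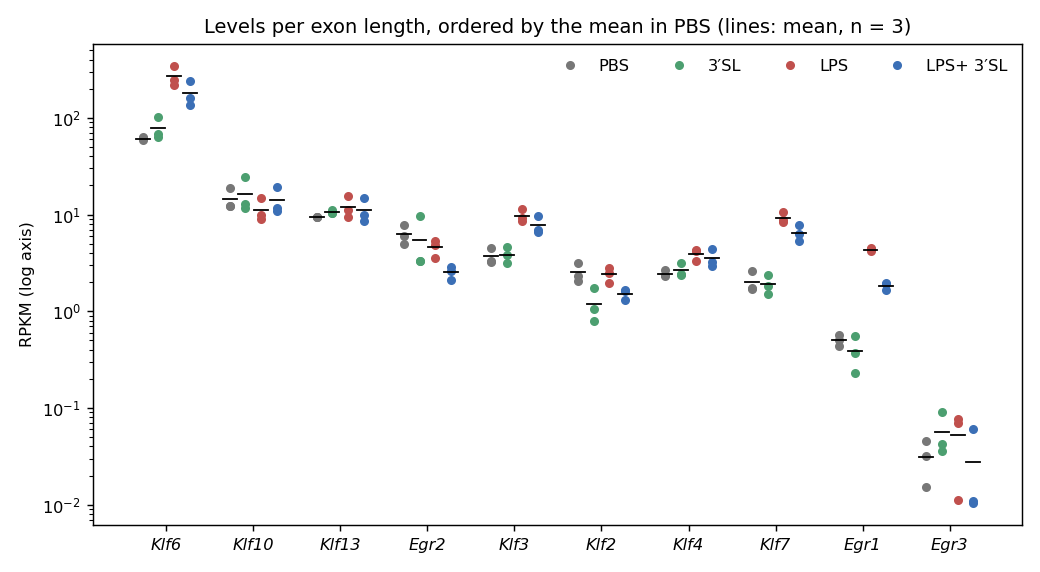
RPKM (log axis) of the 10 genes in each library, by treatment, with the group mean as a line; genes are ordered by their mean in PBS. Klf6 lies highest in every group and Egr3 lowest.

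The LPS response was examined first, by comparing LPS with PBS. Egr1, Klf7, Klf6, Klf3, and Klf4 rose, by 8.64-fold, 4.61-fold, 4.45-fold, 2.63-fold, and 1.61-fold, and no member fell. Egr2, Klf2, Klf10, and Klf13 did not pass the test. Calls required 1.5-fold or more and an adjusted p below 0.05 by the quasi-likelihood test of edgeR. LPS changed much of the transcriptome by that rule: 38.5% of the genes tested were called, and 18.3% were called higher, which is the background for the 5 of 9 members called higher. The median log2 fold change of the 9 was 0.69, and that of all genes tested was -0.061.

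Among the EGR genes, Egr1 encodes the classic immediate early zinc finger factor (chromosome 18). It had 1.95, 2.25, and 2.56 CPM in the PBS libraries of sets 1 to 3 and 18.8, 20.0, and 19.6 CPM in the LPS libraries. The groups were far apart, and the LPS libraries differed by little. The log2 fold change was 3.11 (SE 0.26, adjusted p = 5.89e-06, edgeR), on 64 to 413 reads per library. Egr2 (chr10:67535475-67542188) had 17.0, 20.2, and 26.6 CPM in PBS and 17.9, 16.6, and 12.1 CPM in LPS. The groups overlapped, and the sets went different ways, with log2 ratios of 0.08, -0.29, and -1.14. Egr2 was not called (log2 fold change -0.45, SE 0.38, adjusted p = 0.366, edgeR). Egr3 (chr14:70077203-70082614), an EGR family member best known from muscle spindles and lymphocytes, had 2 to 7 reads in PBS and 1 to 7 in LPS. With the filter on low counts lifted, its log2 fold change was 0.69 (SE 0.92, adjusted p = 0.669, edgeR), so no change was detectable at this depth.

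KLF2 and KLF4, 2 close relatives, are best known from endothelium, where flow induces both, and from myeloid cells. Klf4 (chr4:55527143-55532466) had 7.12, 7.16, and 8.16 CPM in PBS and 10.2, 12.8, and 13.2 CPM in LPS. Its LPS libraries all lay above its PBS libraries, as for 27.3% of the genes tested. The log2 fold change was 0.69 (SE 0.19, adjusted p = 0.0117, edgeR), but it was 0.03 when libraries were scaled by total counts. With set 1 or set 2 left out it was 0.77 and 0.61 and no longer called (adjusted p = 0.0728 and 0.151, edgeR), while with the sets as a replicate block in the same libraries it was 0.77 and 0.60 and called (adjusted p = 0.0114 and 0.0202, 42.2% and 39.6% of genes called). Of 5 endothelial markers, 4 were tested, and with LPS Cdh5 (1.52 to 4.82 CPM in PBS and 6.64 to 18 CPM in LPS, log2 fold change 1.98) and Kdr (4.42 to 5.46 and 7.73 to 11.3 CPM, 0.99) rose, while Pecam1 (0.07) and Vwf (-0.70) were not called and Tek had too few reads to test. By total counts, Cdh5 (1.29) and Kdr (0.36) were not called, and Vwf was called lower (-1.33). The summed level of the 5 markers, mostly Vwf, was 44.5 to 76.2 CPM in PBS and 47.9 to 59.9 CPM in LPS. The part of these markers' cells in the Klf4 result was not tested. Klf2 (chr8:72319033-72321656) had 5.86, 3.82, and 4.32 CPM in PBS and 5.13, 4.60, and 3.62 CPM in LPS. The groups overlapped, and the log2 fold change was -0.07 (95% interval -0.72 to 0.58, adjusted p = 0.881, edgeR). By total counts it was -0.71 and not called (adjusted p = 0.109, edgeR), and with total counts and the block it was -0.74 and called lower (adjusted p = 0.0196).

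Among the KLF members, Klf6, Klf7, and Klf3 had the largest changes. Klf6 (chr13:5861482-5870394), an activator induced in many cells by stress and cytokines, had 256, 273, and 276 CPM in PBS and 972, 1093, and 1514 CPM in LPS. The LPS libraries lay well above PBS and were highest in set 3. The log2 fold change was 2.15 (SE 0.26, adjusted p = 7.1e-05, edgeR). Klf7 (chr1:64029447-64122282), known from neurons and fat cells, had 13.8, 14.3, and 21.1 CPM in PBS and 68.9, 71.9, and 86.2 CPM in LPS. Again no library overlapped, and the log2 fold change was 2.21 (SE 0.22, adjusted p = 2.02e-05, edgeR). Klf3 (chr5:64803388-64832901) encodes a repressor that recruits the corepressor CtBP. It had 36.1, 37.2, and 51.1 CPM in PBS and 95.9, 104, and 127 CPM in LPS, with no overlap. Its log2 fold change was 1.39 (SE 0.2, adjusted p = 0.000224, edgeR). Klf3 and Klf7 overlap exons of other genes on the opposite strand, and whether counting used the strand was not given; those genes had 0 to 7 reads per library.

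Klf10 (chr15:38291463-38300706), the TGF-β–inducible early gene, had 51.8, 52.0, and 78.4 CPM in PBS and 41.2, 37.3, and 62.4 CPM in LPS. Each LPS library was below the PBS library of its set, by -0.33, -0.48, and -0.33 on the log2 scale, yet the groups overlapped because set 3 was high in both. Klf10 was not called (log2 fold change -0.37, SE 0.33, adjusted p = 0.391, edgeR). With the sets as a replicate block it was -0.38 (SE 0.09, adjusted p = 0.00311, edgeR), under 1.5-fold and so not called. That fit called 44.6% of genes. Klf13 (chr7:63886351-63938915), a factor first studied for the late activation of the chemokine gene Ccl5 in T cells, had 70.4, 71.2, and 70.9 CPM in PBS and 70.7, 83.3, and 116 CPM in LPS. Its PBS libraries were nearly level and its LPS libraries were spread, and the log2 fold change was 0.35 (SE 0.2, adjusted p = 0.194, edgeR), which turned to -0.33 with total counts. Total counts moved the median of all genes tested from -0.061 to -0.71. With them, Klf10 (-1.04) and Egr2 (-1.08) were called lower, so these directions are relative to the scaling. By total counts, 57.3% of all genes and 4 members higher and 2 lower were called. Of all calls, 47.5% were higher by TMM and 18.7% by total counts.

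**Figure D2:**
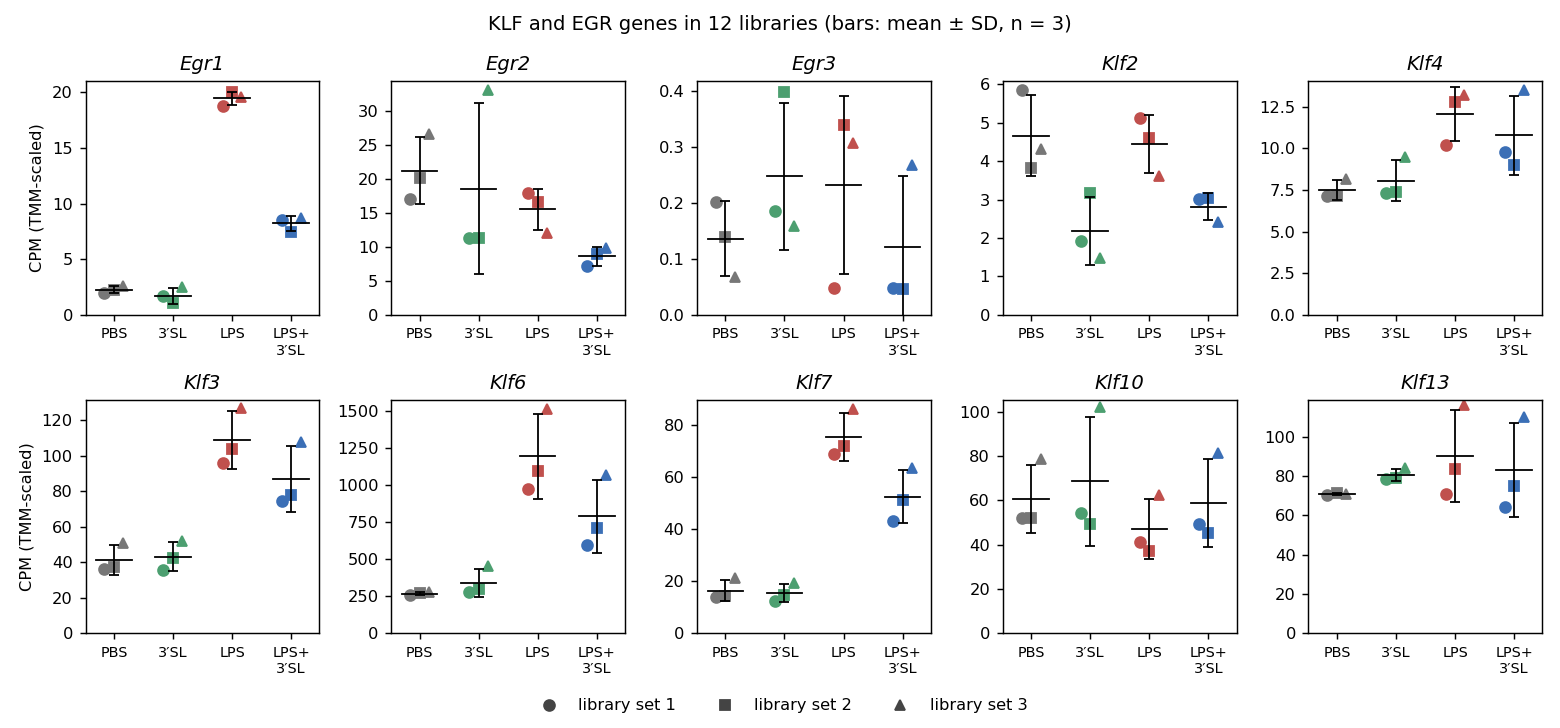
TMM-scaled CPM of each gene in the 12 libraries, by treatment, with symbols for the library set, lines for the group mean, and bars for the SD. The LPS libraries of Egr1, Klf3, Klf4, Klf6, and Klf7 lie above their PBS libraries, and the LPS + 3′SL libraries of Egr1, Egr2, Klf2, and Klf7 lie below the LPS libraries.

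The LPS response in the presence of 3′SL was then taken from LPS + 3′SL and 3′SL, a comparison that shares no library with that of LPS and PBS. Egr1 (4.78-fold), Klf7 (3.39-fold), Klf6 (2.3-fold), and Klf3 (2.00-fold) rose, and Egr2 fell, by 1.11 on the log2 scale. Here 29.2% of all genes tested were called, 14.3% higher and 14.8% lower. The median log2 fold change of the 9 members was 0.42, and that of all genes was -0.067. When set 2 was left out, 2 members were called, Egr1 and Klf7, among 15.1% of genes, while Klf3 (1.06), Klf6 (1.19), and Egr2 (-1.39) were as far from 0 as before or nearly so and were not called (adjusted p = 0.0592, 0.0911, and 0.134, edgeR). With the same libraries and the replicate block, all 5 were called, among 29.7% of genes, with an adjusted p of 0.0446 for Egr2. Without set 1, Egr2 was not called (-1.24, adjusted p = 0.109, edgeR), nor with the block there (-1.15, adjusted p = 0.0516, edgeR). Without set 3, Egr2 was at -0.46 with and without the block, under 1.5-fold and so not called.

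Egr1 had 1.67, 1.03, and 2.47 CPM with 3′SL and 8.54, 7.49, and 8.74 CPM with LPS + 3′SL. No library overlapped, as for 22.4% of genes in this direction, and the log2 fold change was 2.26 (SE 0.26, adjusted p = 7.59e-05, edgeR). Klf7 had 12.3, 14.8, and 19.4 CPM with 3′SL and 43.1, 51.2, and 63.5 CPM with both. Within each group the level was lowest in set 1 and highest in set 3, and the within-set log2 ratios were 1.81, 1.79, and 1.71. Klf6 had 277, 300, and 451 CPM with 3′SL and 595, 708, and 1065 CPM with both. Set 3 was highest in each group, and the groups did not overlap (log2 fold change 1.2, SE 0.26, adjusted p = 0.00372, edgeR). Klf3 had 35.5, 42.4, and 51.8 CPM with 3′SL and 74.3, 78.1, and 108 CPM with both, again without overlap. Its log2 fold change was 1.0 (SE 0.2, adjusted p = 0.00257, edgeR), and by total counts it was 0.51, under 1.5-fold and so not called.

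Egr2 had 11.3, 11.3, and 33.1 CPM with 3′SL and 7.13, 8.92, and 9.81 CPM with LPS + 3′SL. All the LPS + 3′SL libraries were below all the 3′SL libraries, as for 24.2% of genes, and 1 library, 3′SL of set 3, was far above the others. The log2 fold change was -1.11 (SE 0.39, adjusted p = 0.0461, edgeR), close to the threshold. Without that library it was -0.38 with an adjusted p of 0.245 in edgeR, and the call was also lost when 9 of the other 11 libraries were left out in turn, with DESeq2 size factors, and with only these 2 groups fitted. Klf4 (7.29, 7.40, and 9.50 CPM with 3′SL and 9.80, 9.01, and 13.5 CPM with both) overlapped and was not called (log2 fold change 0.42, adjusted p = 0.112, edgeR). Klf2, Klf10, and Klf13 had log2 fold changes of 0.36, -0.22, and 0.05 and were not called (adjusted p = 0.393, 0.658, and 0.9, edgeR). With total counts, 43.4% of genes were called, Klf10 was lower among them (-0.71, adjusted p = 0.0325, edgeR), and the values of Klf2, Klf4, and Klf13 were -0.12, -0.07, and -0.47 and not called, while the median of all genes moved from -0.067 to -0.54 and the share of calls that were higher from 49.2% to 21.8%.

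**Figure D3:**
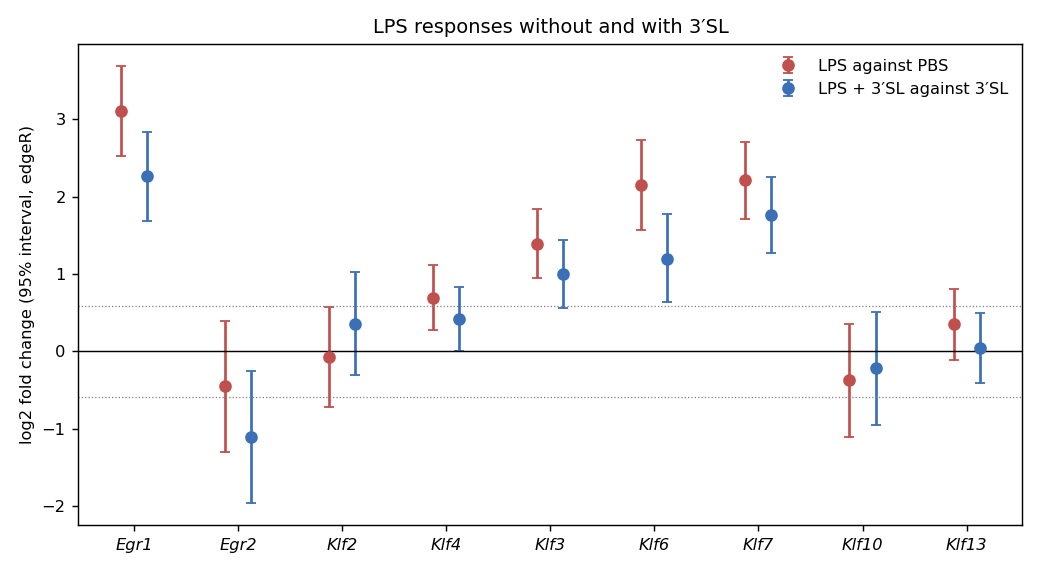
edgeR log2 fold changes of 9 genes for LPS against PBS and for LPS + 3′SL against 3′SL, with 95% intervals; dotted lines mark 1.5-fold. Egr1 goes from 3.11 to 2.26, Klf6 from 2.15 to 1.2, and the intervals of Klf2 and Klf13 hold 0 in both.

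The effect of 3′SL on quiescent cells was examined by comparing 3′SL with PBS. Klf2 had the largest difference of the 9 members, 2.12-fold lower with 3′SL, and it did not pass the test. No member was called by edgeR, nor was any of the 14308 genes (0%), although 1439 genes (10.1%) had an unadjusted p under 0.05, among members Klf2 alone. DESeq2 called 88 genes (0.617%), of which 1 was a member, Klf2.

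Klf2 had 5.86, 3.82, and 4.32 CPM in PBS (204, 109, and 128 reads) and 1.93, 3.18, and 1.47 CPM with 3′SL (52, 80, and 37 reads). The 2 groups did not overlap, and of all genes tested 8.53% lay lower with 3′SL without overlap, but set 2 differed little. The log2 ratios were -1.60, -0.26, and -1.55 in sets 1 to 3, and the fitted log2 fold change was -1.09 (SE 0.30, adjusted p = 0.33, edgeR). Klf2 was called lower by DESeq2 (adjusted p = 0.0436) and by edgeR with the sets as a replicate block (adjusted p = 0.0293, 2.84% of genes called). The call with the block was lost when any set was left out. Nearly all genes lost their calls without set 1 or set 2, with 0.0141% and 0.0208% called. Without set 3, 2.24% of genes were called. Summed endothelial markers, the cells for which Klf2 is best known, were 44.5 to 76.2 CPM in PBS and 47.1 to 64.6 CPM with 3′SL, and their part was not tested.

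The other members differed less. Egr1 had a log2 fold change of -0.38 (SE 0.26, adjusted p = 0.664, edgeR), and its libraries overlapped. Egr2 was lower in sets 1 and 2, with log2 ratios of -0.59 and -0.84, and higher in set 3, with 0.32. Its fitted value was -0.20 (SE 0.38, adjusted p = 0.917, edgeR), and with set 3 left out and the block it was -0.73 (adjusted p = 0.00607, 2.24% of genes called). Klf6 was higher with 3′SL in all 3 sets, with log2 ratios of 0.11, 0.14, and 0.71, and a fitted value of 0.35 (adjusted p = 0.69, edgeR). Klf13, with 78.4, 79.1, and 84.1 CPM, was also above its PBS libraries in every set, with a fitted value of 0.18 (adjusted p = 0.818, edgeR). Of all genes, 9.02% lay higher without overlap, as Klf6 and Klf13 did. Klf3, Klf4, Klf7, and Klf10 had fitted values of 0.06, 0.11, -0.08, and 0.17, within their spread. Egr3 had 4 to 10 reads with 3′SL.

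The effect of 3′SL on LPS-stimulated cells was examined by comparing LPS + 3′SL with LPS. These LPS libraries are also part of the first comparison, so the values of the 2 are given side by side only. Egr1 was 2.36-fold lower with 3′SL, Egr2 1.80-fold, Klf2 1.58-fold, Klf6 1.51-fold, and Klf7 1.44-fold, and none of these passed the test across all genes. No gene at all was called by edgeR (0% of 14308), although 995 (6.95%) had an unadjusted p under 0.05, with the 3 members Egr1, Klf6, and Klf7 among them. DESeq2 called 113 genes (0.792%), of which Egr1 was the only member. Values of 8 of the 9 members were below 0, with a median log2 fold change of -0.53 against -0.008 for all genes.

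Egr1 had 18.8, 20.0, and 19.6 CPM with LPS and 8.54, 7.49, and 8.74 CPM with LPS + 3′SL. The 2 groups each covered a narrow range, with a wide gap between them, and each set showed it, with log2 ratios of -1.14, -1.42, and -1.17. The fitted log2 fold change was -1.24 (95% interval -1.78 to -0.70, SE 0.24), with an unadjusted p of 0.000383 and an adjusted p of 0.153 in edgeR. Egr1 was called by DESeq2 (adjusted p = 0.000154) and by edgeR with the replicate block (adjusted p = 0.00677, 1.45% of genes called). Over all alternatives to the reported fit, its log2 fold change ran from -1.30 to -1.15 and its adjusted p from 2.98e-07 to 1.

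Egr2 had 17.9, 16.6, and 12.1 CPM with LPS and 7.13, 8.92, and 9.81 CPM with both. The groups did not overlap, and the distance was widest in set 1 and smallest in set 3, with log2 ratios of -1.33, -0.89, and -0.30 in sets 1 to 3. The fitted value was -0.85 (SE 0.39, adjusted p = 0.726, edgeR). Klf2 had 5.13, 4.60, and 3.62 CPM with LPS and 3.01, 3.03, and 2.41 CPM with both. Its groups did not overlap either, and the ratios were -0.77, -0.60, and -0.59, with a fitted value of -0.66 (SE 0.30, adjusted p = 0.717, edgeR).

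Klf6 had 972, 1093, and 1514 CPM with LPS and 595, 708, and 1065 CPM with both. Set 3 was high in each group, so the groups overlapped, while every set had a lower value with 3′SL (log2 ratios -0.71, -0.63, and -0.51). The fitted value was -0.60 (SE 0.25, adjusted p = 0.672), and Klf6 was called by edgeR with the replicate block (adjusted p = 0.0263). Klf7 had 68.9, 71.9, and 86.2 CPM with LPS and 43.1, 51.2, and 63.5 CPM with both, without overlap. Its ratios were -0.68, -0.49, and -0.44, and its fitted value of -0.53 (SE 0.21, adjusted p = 0.649, edgeR) was under 1.5-fold. With the block its adjusted p was 0.00952. Klf3 had 95.9, 104, and 127 CPM with LPS and 74.3, 78.1, and 108 CPM with both. It was lower in every set, by -0.37, -0.41, and -0.24, and the groups overlapped.

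Of the members, 4 (Egr1, Egr2, Klf2, and Klf7) lay lower without overlap, against 6.5% of all genes. In all, 7 members were lower in all 3 sets (Klf13 by -0.13, -0.16, and -0.07), which 25.7% of all genes were. Klf10 was higher in all 3, by 0.26, 0.28, and 0.39, as were 21.3% of genes, and Klf4 differed in sign between sets. Klf10, Klf13, and Klf4 had fitted values of 0.32, -0.11, and -0.16, with an adjusted p of 1 each in edgeR. The result depended on the sets: with set 3 left out, edgeR called 3 members lower, Egr1 (-1.26), Egr2 (-1.10), and Klf6 (-0.66), and 1.04% of all genes, while with set 1 or set 2 left out it called no member (0% of genes). The summed stromal markers were 48.3 to 729 CPM with LPS and 36.1 to 745 CPM with both, neutrophil markers 161 to 729 CPM and 159 to 663 CPM, and macrophage markers 25142 to 28022 CPM and 23675 to 28335 CPM.

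**Figure D4:**
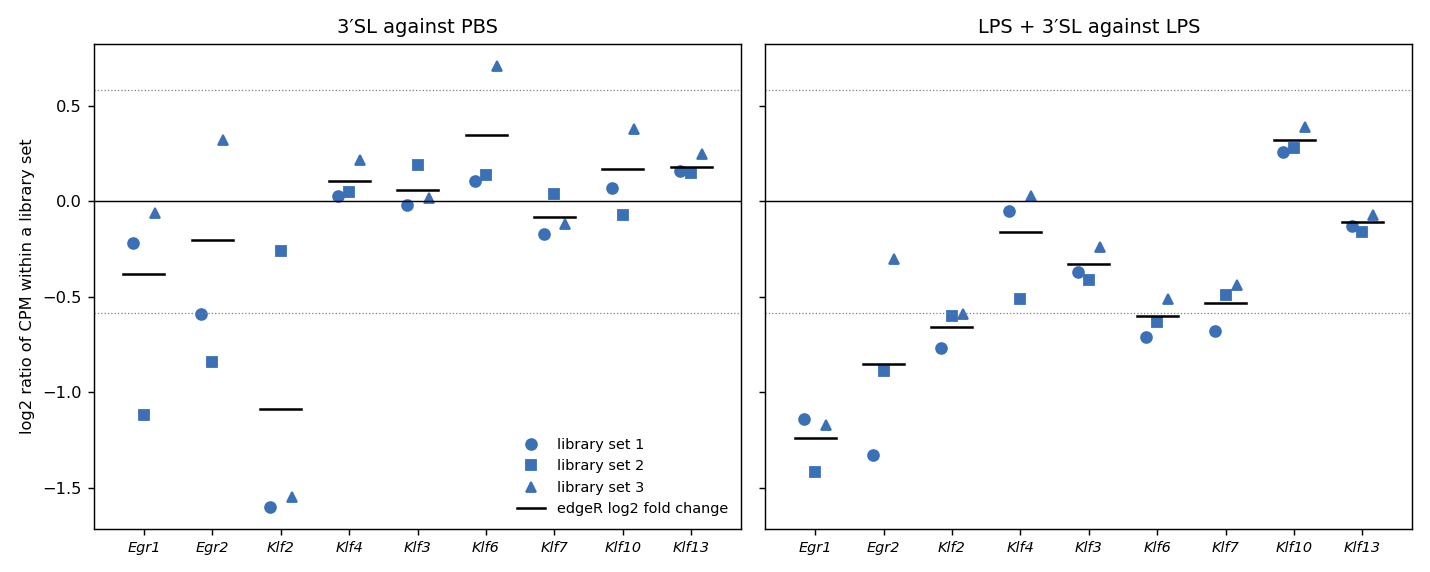
Log2 ratios of CPM within each library set for 3′SL against PBS (left) and LPS + 3′SL against LPS (right), with the edgeR log2 fold change as a line and 1.5-fold as dotted lines. With LPS, 7 of 9 genes are below 0 in all 3 sets; without LPS, Klf2 is low in sets 1 and 3 and Egr2 differs in sign.

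Whether 3′SL changed the LPS response was tested as the difference of the 2 LPS responses. It was -0.95 for Klf6 (SE 0.36, adjusted p = 0.746), -0.86 for Egr1 (SE 0.35, adjusted p = 0.778), and -0.65 for Egr2 (SE 0.54, adjusted p = 0.902) on the log2 scale in edgeR. Klf7 (-0.44), Klf3 (-0.39), Klf13 (-0.30), and Klf4 (-0.27) were also below 0, and Klf2 (0.43) and Klf10 (0.15) above. No member and no gene was called (0%), and 872 genes (6.09%), with Klf6 and Egr1 among them, had an unadjusted p under 0.05. DESeq2 called 44 genes (0.308%) and no member. With the replicate block, Klf6 was called (-0.92, adjusted p = 0.0267), among 1.55% of genes. Its within-set differences were -0.82, -0.76, and -1.22, and those of Egr1 were -0.92, -0.30, and -1.11.

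Most other KLF genes had too few reads to test or fell with LPS. Of 10 further KLF genes, 4 were tested, and with LPS Klf8 rose while Klf9, Klf11, and Klf16 fell. Klf8, a repressor that like KLF3 binds CtBP, had 1.48 ± 0.514 CPM in PBS and 11.9 ± 2.63 CPM in LPS (log2 fold change 3.01, SE 0.29, adjusted p = 1.36e-05, edgeR). With LPS + 3′SL it had 7.68 ± 1.32 CPM, below every LPS library (log2 fold change -0.64, adjusted p = 0.666, edgeR). Klf11, a relative of KLF10 that recruits SIN3, had 8.35 ± 1.48 CPM in PBS and 3.38 ± 0.904 CPM in LPS (-1.31). Klf16, another SIN3-binding member, fell by 1.11 on the log2 scale, and Klf9, a glucocorticoid-inducible gene, by 1.15. Against 3′SL, LPS + 3′SL moved the 4 the same way, with values of 2.07, -2.01, -1.23, and -1.21 for Klf8, Klf11, Klf16, and Klf9. Klf1, Klf5, Klf12, Klf14, Klf15, and Klf17 had 0 to 13 reads in any library.

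The SP genes encode the close relatives of KLF proteins. Sp1, Sp2, Sp3, and Sp4 were tested, and none was called by edgeR with LPS (log2 fold changes -0.11, 0.57, 0.26, and -0.16; DESeq2 called Sp2), while Sp4 fell by 0.85 with LPS + 3′SL against 3′SL. Sp5 to Sp9 had 0 to 14 reads. Of the EGR partners, both NAB corepressors rose with LPS: Nab1 from 77.6 ± 0.854 to 177 ± 23 CPM (log2 fold change 1.19, SE 0.13, adjusted p = 4.16e-05, edgeR) and Nab2 from 31.1 ± 8.45 to 51.6 ± 11.8 CPM (0.73, SE 0.24, adjusted p = 0.0287, edgeR). With 3′SL added to LPS they were at 174 ± 18.8 and 59.6 ± 10.9 CPM, and the log2 fold changes were -0.03 and 0.21. Egr4 had 0 to 3 reads. By total counts, the values with LPS were 0.53 for Nab1 and 0.07 for Nab2, neither of them called, and Sp1 (-0.78) and Sp4 (-0.86) were called lower.

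**Figure D5:**
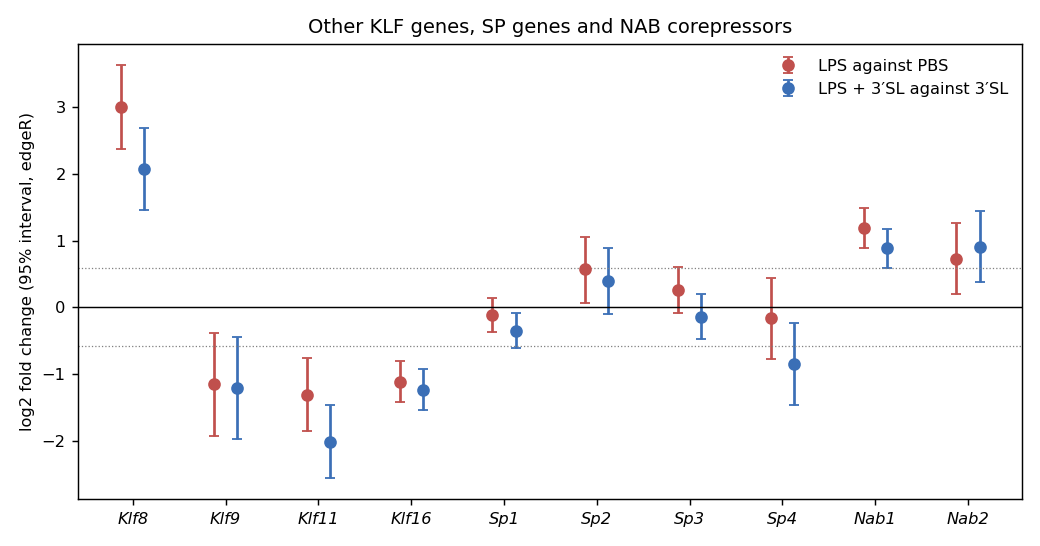
edgeR log2 fold changes with 95% intervals for other KLF genes, SP genes, and NAB corepressors, for LPS against PBS and LPS + 3′SL against 3′SL; dotted lines mark 1.5-fold. Klf8, Nab1, and Nab2 lie above 0, Klf9, Klf11, and Klf16 below, and Sp1 to Sp4 between -0.16 and 0.57 for LPS against PBS.

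Genes upstream of the members and those known as their partners or targets came from lists, whose counts stand against 18.3% of all genes called higher and 20.2% called lower with LPS. Of 16 genes for serum response factor, its cofactors, MEF2 factors, and ERK kinases, LPS raised 1 and lowered 6. Map2k1, which encodes the ERK kinase MEK1, rose by 1.76, and Mef2d (-1.41) and Mrtfb (-1.38), a serum response factor coactivator, fell. Mef2a (-1.38) and Mef2c (-1.35), named after their values were seen, fell as well. MEF2 proteins are known to bind the element marked in the Klf2 promoter, and their part in Klf2 levels was not tested. Klf2 had a log2 fold change of -0.07 with LPS and was not called. Between PBS and 3′SL, mean levels were 473 and 497 CPM for Mef2a, 106 and 97.5 for Mef2c, and 93.5 and 104 for Mef2d. Of 9 cofactors that KLF proteins bind, 3 rose and 3 fell, led by Kat2b, a histone acetyltransferase (2.23), Wwp1, a ubiquitin ligase (-2.18), and Hdac1, a histone deacetylase (1.52). Of 18 other immediate early genes, 9 rose and 2 fell with LPS, with Dusp2, a phosphatase of MAP kinases (5.04), Zfp36, which speeds decay of cytokine mRNA (3.41), and Ier3, a survival gene (3.15), the largest.

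Of 8 genes known as targets of KLF2 or KLF4, 6 were tested. With LPS, Thbd (thrombomodulin) and S1pr1 (a sphingosine phosphate receptor) fell (-3.07 and -2.13), while Klf2 itself was not called. Of 7 TGF-β ligand, receptor, and SMAD genes, Tgfbr1 (-1.77) and Smad3 (-1.44) fell, beside the uncalled value of -0.37 for Klf10. The median log2 fold changes with LPS were -0.26 for the first list, -0.16 for cofactors, 1.01 for immediate early genes, and -0.19 for the TGF-β list, against -0.061 for all genes. By total counts, 6657 of 14308 genes tested were called lower with LPS and 1535 higher. Beside that, LPS lowered 11 of the first list, 5 cofactors, 3 immediate early genes, 3 targets, and 3 of the TGF-β list. It raised 1 of the first list, 2 cofactors, 8 immediate early genes, and none of the TGF-β list. No called gene of these lists changed sign. In both 3′SL comparisons, no gene of any of these lists was called by edgeR or DESeq2. With the replicate block, edgeR called 2 of the 18 immediate early genes lower with LPS + 3′SL than with LPS, Ier2 (-0.74) and Btg2 (-0.59). Of all genes, 0.762% were called lower there. With the block, edgeR called 3 immediate early genes higher with 3′SL than with PBS, and 1 target lower, Arg1 (-1.03). In that comparison 1.98% of all genes were called higher and 0.86% lower. Ier2, Btg2, and Arg1 are named after their values were seen.

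For each member, the gene most like it was taken by Pearson's correlation of log2 CPM over the 12 libraries, which share treatments and sets, as a description. Klf7 was most like Tnfaip3 (r = 0.996), which encodes the NF-κB inhibitor A20. Klf6 was most like Samsn1 (r = 0.993), and Klf3 most like Msn (r = 0.993), the gene of the membrane linker moesin. Egr1 was most like Etf1 (r = 0.985), a translation termination factor gene. The other members had Micall1 (Klf10, r = 0.974), Zbtb21 (Klf4, r = 0.972), Cnppd1 (Klf13, r = 0.967), Tmem205 (Egr2, r = 0.948), and Polr2d (Klf2, r = 0.934). The 4 members that LPS raised most had r of 0.985 or more, and Klf2 the lowest. Each r was the highest over 14299 other genes, and 38.5% of genes tested were called with LPS, so this order is not a separate result.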

How the data were processed

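BMDM libraries were grouped by the treatment in the labels, 3 per group. The files deposited by the authors hold whole-number counts of reads for each gene, with no normalization. Per the labels, libraries were stranded and poly(A)-enriched, and the submitters' processing notes name FastQC, Trimmomatic, STAR, HTSeq, and DESeq2, with no versions; the build and the counting strand are not given in the sources used here. Ambiguous reads, 2.78% to 3.35% of reads counted on genes or ambiguous, and reads not on genes were left out. Identifiers were matched to GENCODE M21 (GRCm38), giving 42462 names.

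Counts were fitted in R 4.3.3 with edgeR 4.0.16 (filterByExpr, TMM factors of 0.7 to 1.3, 1 mean per group, quasi-likelihood test), with Benjamini-Hochberg adjustment over 14308 genes. The functions were tested on simulated data. Standard errors and 95% intervals come from this fit. DESeq2 1.42.0, other scalings, filters, a replicate block, and left-out libraries or sets were alternatives; leaving out whole sets was chosen after seeing the data. Residuals of libraries correlated by 0.449 to 0.744 within a set and by -0.501 to -0.011 between sets, so sets served as the replicate block; the pairing comes from the order of library numbers and the data, not from described batches. The biological coefficient of variation was 0.31 without and 0.133 with the block. The closest replicates still differed beyond counting noise (chi-square per gene 14.6). RPKM used the summed exon length, and likeness used log2 CPM with a prior count of 2.

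The members and lists were chosen with earlier results of these data known. By rule, all members are named, every tested family or partner gene may be, and of the other lists the 3 largest changes called with LPS. The result for 1 gene of the target list is not reported here.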

Additional observations from a re-analysis of the deposited data

How the results depend on the processing

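Of 243 recomputed fold changes of members per comparison, 227 kept direction and call for LPS against PBS, 210 for LPS + 3′SL against 3′SL, 223 for 3′SL against PBS, and 229 for LPS + 3′SL against LPS, as did 226 of 234 for the difference of the LPS responses. The number of members called with 3′SL against PBS went from 0 to 1 with DESeq2, with the replicate block, with the block and total counts, and with the block in DESeq2. For LPS + 3′SL against LPS it went from 0 to 1 with DESeq2, to 2 with the replicate block, to 1 with the block and total counts, and to 2 with the block in DESeq2. For the difference of the LPS responses it went from 0 to 1 under each of the 3 fits with the block. Leaving out set 2 gave 2 members, not 5, for LPS + 3′SL against 3′SL, and all 5 with the block. Leaving out set 1 or set 3 lost the call of Egr2 alone in that comparison, with and without the block. Leaving out set 3 gave 3 for LPS + 3′SL against LPS, without and with the block, and with the block 1 for 3′SL against PBS and 1 for the difference. In the comparisons of LPS with PBS and of LPS + 3′SL with 3′SL, the block changed no member's call with all libraries and TMM scaling. With total counts it added Klf2 lower with LPS (-0.74), and with set 1 or set 2 left out it restored Klf4 with LPS (0.77 and 0.60). The cause of these changes was not tested. The biological coefficient of variation was 0.31 without and 0.133 with the block, whose sets come from library numbers and these data, not from described batches.

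Total counts reversed Klf13 with LPS (-0.33, and -0.34 with the block), Klf2 (-0.12, and -0.10 with the block), Klf4 (-0.07 both ways) and Klf13 (-0.47 both ways) for LPS + 3′SL against 3′SL, and Klf3 for 3′SL against PBS (-0.03 both ways). Without 1 library, uncalled values that changed sign ranged from -0.19 to 0.13 for Klf2 with LPS, and from -0.53 to 0.20 for Klf10 and from -0.21 to 0.20 for Klf13 in LPS + 3′SL against 3′SL. For 3′SL against PBS the ranges were -0.12 to 0.24 (Klf3), -0.06 to 0.18 (Klf4), -0.32 to 0.14 (Klf7), -0.27 to 0.40 (Klf10), and -0.95 to 0.06 (Egr2). For LPS + 3′SL against LPS, Klf13 ran from -0.37 to 0.11, and for the difference Klf10 ran from -0.16 to 0.59 and Egr2 from -0.91 to 0.09. Sets left out, chosen after seeing the data, reversed Klf2 with LPS (0.02 without set 1, 0.01 without set 3 with and without the block), Klf13 in LPS + 3′SL against 3′SL (-0.15 without set 3), Klf10 (-0.02 without set 3), Egr2 (0.03 without set 2), and Klf3 (0 without set 2, with the block) for 3′SL against PBS. With 26 to 80 reads in the 3′SL libraries, Klf2 and Egr1 are limited by depth, and Egr3 could not be tested; counting intervals would cover counting error only.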
